A study of Mus musculus with 6 samples.

Results

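ATF4 is a transcription factor that turns on amino acid supply, and 40 genes built around it were followed here in regulatory T cells (Tregs) with and without DJ-1. They are ATF4 and its stress partners, the enzymes that make serine, glycine, asparagine and proline, the folate enzymes that carry one-carbon units, amino acid transporters and the cytosolic aminoacyl-tRNA synthetases. The genes were listed by name, and a probe set was used where the platform annotation gave it 1 gene symbol that matched a listed gene under its current or older name. All 40 were found, with 622 probe sets, among 23152 named genes with 233753 such probe sets on the array, an Affymetrix whole-transcript design (Mouse Gene 2.0 ST). Of the 40, 35 passed the filter on dim genes and were tested.

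Tregs are CD4-positive T cells that restrain immune responses, and they were sorted as CD4+CD25high cells from spleens of untreated male mice aged 45 weeks. The KO group held 3 DJ-1-/- mice, which lack the protein encoded by Park7, and the WT group held 3 DJ-1+/+ littermates, with 1 array per mouse. Which part of Park7 is removed is not stated. The arrays are called WT1 to WT3 and KO1 to KO3. DJ-1 is a redox-sensitive protein whose loss causes a familial form of Parkinson disease, and the study set out to ask about its part in Treg homeostasis and pyruvate dehydrogenase activity during ageing.

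When amino acids run short or unfolded protein builds up, kinases phosphorylate the initiation factor eIF2α, which slows most translation but lets ATF4 protein be made. ATF4 then binds C/EBP-ATF response elements in genes for amino acid synthesis, uptake and tRNA charging. Because this control acts largely on translation, the level of Atf4 mRNA is only a partial readout of the pathway. In dividing T cells the same enzymes supply serine and one-carbon units for nucleotide synthesis.

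The element is shown first because it is the sequence that ATF4 binds. The letters TGATGNAA were searched on both strands in RefSeq promoter windows (GRCm38.p6), each running from 250 bases before to 50 bases after a gene's start. Windows were held for 32 of the 40 genes, 36 windows in all, and 9 of them (25%), from 9 genes, contained the letters. Over all 32851 windows of that length the share was 3.97% (1304 windows), and over the 21263 windows of protein-coding genes it was 3.60% (766). The genes were listed around ATF4, so these shares are no independent result about the list. The first 6 of the 9 genes in order of the limma p of KO against WT are printed, each as the coding strand from 5′ to 3′ with the element in capitals. For Asns, Tars and Gars the stretch is the 60 bases just before the start, for Aars it is 60 bases further upstream, and for Trib3 and Yars, where the element follows the start, it is 30 bases.

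Asns, chr6:7693210-7693269, minus strand: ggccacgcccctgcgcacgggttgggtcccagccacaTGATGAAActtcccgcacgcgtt
Aars, chr8:111033704-111033763, plus strand: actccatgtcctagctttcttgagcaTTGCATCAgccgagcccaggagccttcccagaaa
Tars, chr15:11399659-11399718, minus strand: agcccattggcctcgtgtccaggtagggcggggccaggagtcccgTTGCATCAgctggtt
Gars, chr6:55037941-55038000, plus strand: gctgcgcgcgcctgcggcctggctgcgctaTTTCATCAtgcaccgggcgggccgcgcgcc
Trib3, chr2:152344028-152344057, minus strand: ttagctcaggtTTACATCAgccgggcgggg
Yars, chr4:129189895-129189924, plus strand: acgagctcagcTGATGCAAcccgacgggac

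Counted from the start, the element lay at -23 to -16 in Asns and at -112 to -105 in the Aars stretch shown. The Aars window held a further match, at 10 to 17 after the start, which is not printed. In the stretches shown the element ran on the coding strand in Asns and Yars and on the opposite strand in the other four, where it reads as its reverse complement. Iars, Chac1 and Pycr1 held it as well. A match is a description of these letters, and binding was not measured.

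Across the 3 KO and 3 WT arrays limma called none of the 35 at an adjusted p of 0.05 (0 of 35, lowest adjusted p 0.213), against 0.274% of all 13891 genes tested. Of the 35, 3 had an unadjusted p under 0.05 in limma, Asns, Psat1 and Mthfd1, all lower in KO (8.57%, against 7.67% of all genes lower and 2.99% higher, 10.7% in all). An unmoderated test called 0 of the 35, and 0 of all genes, after adjustment, and its 3 at an unadjusted p under 0.05 were Psat1, Asns and Slc3a2. The KO mean was the lower one for 28 of the 35 (80.0%), against 59.7% of all genes tested, and the median difference, KO minus WT, was -0.13 on the log2(intensity + 16) scale, against -0.052 over all genes. Without KO1 the KO mean was lower for 23 of the 35 (median -0.083), against 51.8% of all genes (median -0.0087). Without WT3 it was lower for 22 (median -0.087), against 57.0% (-0.041). With quantile normalization it was lower for 23 (median -0.079), against 52.0% (-0.0097), so the values over all genes moved towards 0 as well. Among brighter genes alone (filter at the 60th percentile) the KO mean was lower for 26 of 32 genes of the list (median -0.13). Over all genes at that filter it was lower for 63.9% (median -0.073).

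For 6 of the 35 every KO array lay below every WT array (17.1%), against 11.3% of all genes, and for 0 every KO array lay above, against 6.1%. The 6 were Asns, Psat1, Mthfd1, Aars, Slc7a6 and Slc3a2. The 95% intervals of all 35 differences lay between -0.93 and 0.55, so each excluded a change of 1 log2 unit in either direction on this scale. The number of arrays limits the precision, and an exact permutation test of 3 against 3 cannot go below 0.10.

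**Figure D1:**
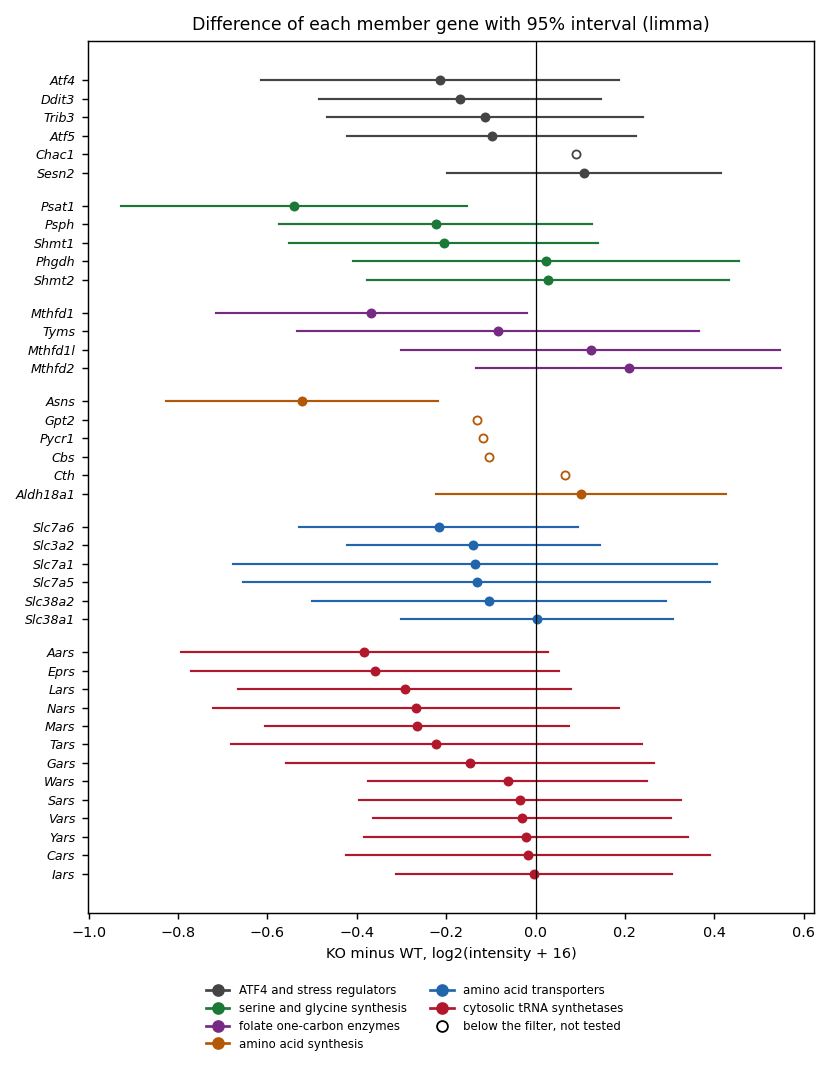
Difference between KO and WT (KO minus WT, log2(intensity + 16), horizontal axis) for each of the 40 genes, grouped and coloured by role; points are differences of means over 3 arrays each, lines are 95% limma intervals, and hollow points are the 5 genes below the filter. The intervals of Asns, Psat1 and Mthfd1 are the 3 that lie wholly below 0.

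The arrays were first checked for the targeted gene and for the sorted cell. Park7 had means of 9.48 ± 0.21 (WT) and 5.91 ± 0.18 (KO, SD, n = 3 each, limma adjusted p = 2.06e-05), the second close to the filter floor of 5.90. The Treg and T cell markers Foxp3, Il2ra, Ctla4, Ikzf2, Cd4 and Cd3e were all above the floor, with summed intensities of 29826 to 30034 in WT and 27758 to 29076 in KO, and 0 of 6 passed. In the lists of other cell types 0 genes passed as well. Summed intensities were 963 to 1343 in WT and 964 to 1119 in KO for 5 B cell genes, 1949 to 2771 and 1641 to 2188 for 5 plasma cell genes (of which Xbp1 and Prdm1 are also expressed in Tregs), 582 to 856 and 490 to 598 for 7 macrophage genes, and 683 to 730 and 539 to 605 for 5 NK and CD8 genes. For 2 erythroid genes they were 77.7 to 92.8 and 53.6 to 97.0. The KO sums lay wholly below the WT sums for the Treg and T cell genes and for the NK and CD8 genes, and overlapped them for the others. Such sums rest mostly on the brightest gene of a list. Of single markers, all 5 tested macrophage genes had a lower KO mean (median -0.35), with C1qc (-0.47, limma adjusted p = 0.296) and Csf1r (-0.54, 0.318) wholly below WT. Ncr1, an NK cell receptor, was also wholly below WT (-0.85, 0.212), whereas Klrb1c of the same list was wholly above it (0.28, 0.552). Of the 4 tested NK and CD8 genes 2 were lower and 2 higher in mean. Of the 4 tested plasma cell genes 3 were lower in mean and 1 was higher (0.063), all with overlap. Prdm1 (-0.92, 0.362) and Jchain (-0.85, 0.362) were among the lower ones. These single genes were named after their values were seen. The B cell genes Ms4a1 and Pax5, the plasma cell gene Tnfrsf17, the macrophage genes Lyz2 and Adgre1, the cytotoxic gene Gzma and the erythroid gene Alas2 lay below the floor. The part of such cells in the values below was not tested, and in sorted bulk cells fewer cells of a type cannot be told apart from less RNA per cell. KO1 had the lowest median intensity (88.6 against 95.3 to 100.2) and the lowest mean Spearman correlation with the other arrays (0.942 against 0.945 to 0.955). For the 35 tested genes, values without it are therefore given where they change direction or move by over 1.5 times. For single genes of the other lists they are not given.

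None of the regulators at the head of the pathway passed, and their KO and WT arrays overlapped. Atf4 was at 9.87, 9.84 and 9.84 in WT1 to WT3 while KO1 to KO3 read 9.83, 9.85 and 9.24. Only KO3 stood apart, and the other 2 KO arrays lay among or next to the WT values. The difference was -0.21 (SE 0.18, limma adjusted p = 0.706, n = 3 each), and it was -0.015 without KO3. Of the 5 Atf4 probe sets 2 were lower in KO, 0 lay wholly below WT and 1 lay wholly above it. Over all probe sets with 1 symbol 6.03% lay wholly above. The mean of the Atf4 probe sets in place of their median gave 0.0049.

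Atf5, a related factor that is also translated under stress, was at 6.85, 6.61 and 6.55 in WT and at 6.67, 6.61 and 6.45 in KO. The groups overlapped (-0.098, adjusted p = 0.838, limma), and the difference ranged between -0.16 and -0.0085 when an array was left out. Ddit3 encodes CHOP, which drives death programmes under lasting stress. It was at 8.33, 8.41 and 8.22 in WT and at 8.15, 8.29 and 8.0 in KO, again with overlap (-0.17, adjusted p = 0.704), though each of its 5 probe sets was lower in KO. It was -0.094 without KO3.

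Trib3, Sesn2 and Chac1, which act downstream of ATF4, also overlapped. Trib3 is a pseudokinase that feeds back on ATF4, and its element is printed above. It differed by -0.11 (adjusted p = 0.829, limma), by -0.063 without KO1 and by 0.14 with the mean of its 5 probe sets. Only 1 of these 5 was lower in KO. Sesn2, a leucine sensor that restrains mTORC1, differed by 0.11 (adjusted p = 0.809), and by -0.092 with the mean of its probe sets. Chac1, which degrades glutathione, lay below the floor, at 5.77 ± 0.26 (WT) and 5.86 ± 0.28 (KO; SD, n = 3 each).

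**Figure D2:**
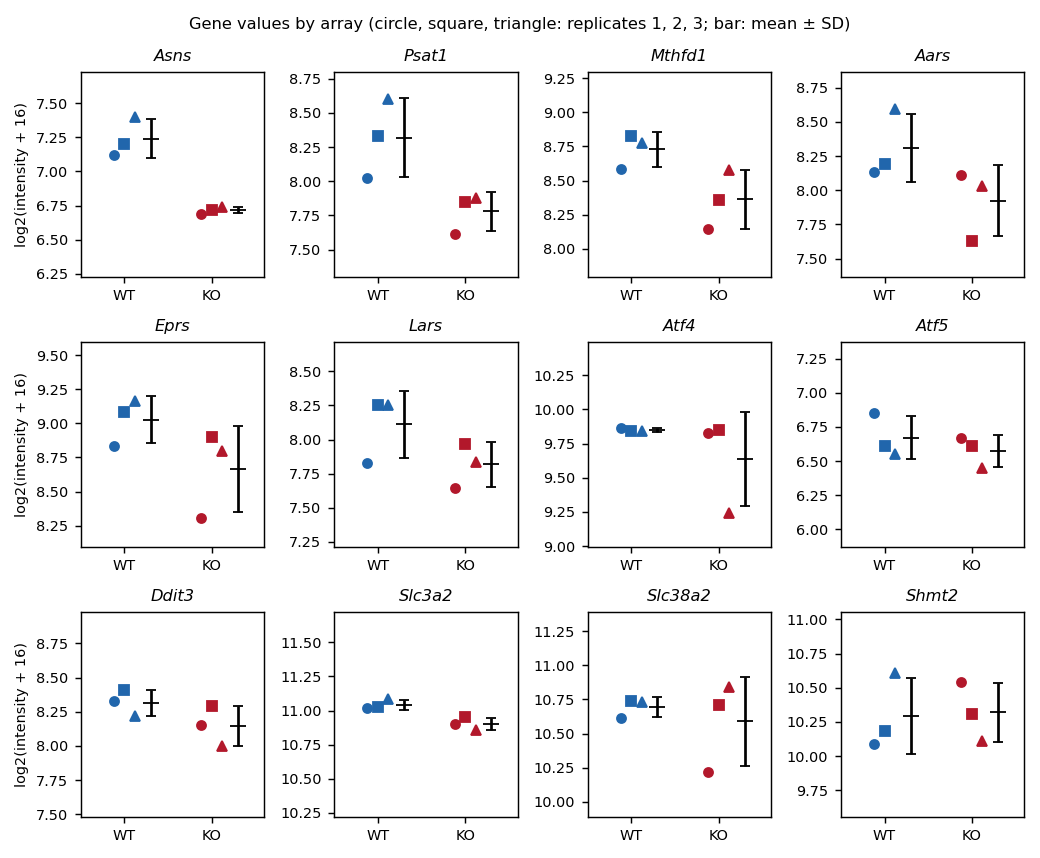
Gene values (log2(intensity + 16), vertical axis, each panel with the same span) in the 3 WT and 3 KO arrays for 12 genes: the 6 with the smallest p, 3 regulators and the 3 with the highest array values; symbols mark the replicate and bars the mean ± SD. Asns, Psat1, Mthfd1, Aars and Slc3a2 show no overlap of the groups, while Atf4 is low in KO3 alone.

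Asns, asparagine synthetase, is a classical ATF4 target and had the smallest p of the 35. Its values were 7.12, 7.20 and 7.40 in WT and 6.69, 6.72 and 6.74 in KO. The 3 KO arrays lay close together and below all WT arrays. The means were 7.24 ± 0.14 and 6.72 ± 0.02 (SD, n = 3 each), a KO level of 0.696 times WT on this scale. The difference was -0.52 (SE 0.14, 95% interval -0.83 to -0.22), and it did not pass (adjusted p = 0.213, limma). Of its 18 probe sets 15 were lower in KO, 6 of them with no overlap, and the differences ran from -0.99 to 0.19. Over all probe sets with 1 symbol 53.7% were lower in KO and 7.95% lay wholly below WT.

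Of the other genes of amino acid synthesis only 1 was bright enough to test. Aldh18a1 makes the proline precursor pyrroline-5-carboxylate, and its means were 9.27 ± 0.14 (WT) and 9.37 ± 0.14 (KO; SD, n = 3 each, limma adjusted p = 0.831). The difference of 0.10 was 0.043 without WT2, 0.051 without KO2, 0.18 when KO1 or WT3 was left out, and 0.033 when its probe sets were averaged. The others lay below the floor and were not tested. Pycr1, the next step to proline, was at 5.78 ± 0.21 in WT and 5.66 ± 0.15 in KO. Gpt2, mitochondrial alanine transaminase, was at 5.82 ± 0.05 and 5.69 ± 0.25. The transsulfuration enzymes, which make cysteine, were at 5.53 ± 0.37 and 5.60 ± 0.47 for Cth and at 5.78 ± 0.22 and 5.68 ± 0.17 for Cbs.

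In the serine pathway the middle enzyme stood out. Psat1, phosphoserine aminotransferase, was at 8.03, 8.33 and 8.60 in WT and at 7.62, 7.84 and 7.88 in KO. All 3 KO values lay below the lowest WT value, although the WT arrays spread over more than the gap between the groups. The means were 8.32 ± 0.29 and 7.78 ± 0.14 (SD, n = 3 each), a KO level of 0.688 times WT. The difference of -0.54 (SE 0.17, 95% interval -0.93 to -0.15) did not pass (adjusted p = 0.302, limma). It was the lowest difference among the 35, and 14 of its 15 probe sets were lower in KO, 3 with no overlap. With the mean of probe sets it was -0.33.

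The enzymes before and after Psat1 did not follow it to the same extent, though these differences between genes were not tested. Phgdh, which commits a glycolytic intermediate to serine, was at 7.06, 7.33 and 7.83 in WT and at 7.37, 7.46 and 7.45 in KO. Its KO values sat inside the wide WT range (0.024, adjusted p = 0.972, limma), and it differed by 0.050 without KO1, -0.15 without WT1 and -0.015 without WT2. Psph, the last step to serine, differed by -0.22 (adjusted p = 0.652), by -0.13 without KO1 and by -0.040 with the mean of probe sets. Of its 11 probe sets 5 were lower in KO.

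Serine hydroxymethyltransferases pass the serine carbon to folate. The cytosolic Shmt1 differed by -0.21 (adjusted p = 0.675, limma), with 15 of 16 probe sets lower in KO. The difference was -0.087 without WT3. The mitochondrial Shmt2 was at 10.09, 10.18 and 10.61 in WT and at 10.54, 10.30 and 10.11 in KO, with each group spanning most of the other. It differed by 0.028 (adjusted p = 0.966), by -0.083 without KO1, -0.075 without WT1 and -0.026 without WT2.

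Among the folate enzymes the cytosolic Mthfd1 was lower in KO, while the sign of the mitochondrial Mthfd2 and Mthfd1l depended on how probe sets were summarised. Mthfd1, the trifunctional cytosolic enzyme, was at 8.59, 8.83 and 8.77 in WT and at 8.15, 8.36 and 8.58 in KO. The groups did not overlap, but KO3 and WT1 differed by only about the second decimal. The difference was -0.37 (SE 0.16, adjusted p = 0.443, limma), and -0.23 over bright probe sets alone and -0.24 with the mean of probe sets. Of its 24 probe sets 21 were lower in KO, 4 with no overlap. Leaving out an array gave -0.48 to -0.26.

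The mitochondrial Mthfd2, an ATF4 target that is high in dividing cells, was at 8.79, 8.52 and 8.37 in WT and at 8.67, 8.79 and 8.85 in KO. KO lay higher in mean (0.21, adjusted p = 0.664, limma), with WT1 among the KO values. That sign held for the median of its probe sets, whereas 7 of its 11 probe sets were lower in KO, and the difference was -0.0092 with the mean of probe sets and -0.030 over bright ones. Mthfd1l, which releases formate from the mitochondrion, differed by 0.12 (adjusted p = 0.848), by -0.083 with the mean of probe sets, -0.080 over bright ones, -0.041 without WT1 and 0.042 without KO1. The difference between the cytosolic and mitochondrial enzymes was not tested.

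Tyms, thymidylate synthase, spends one-carbon units on DNA synthesis. It was at 7.32, 7.73 and 7.30 in WT and at 7.51, 6.97 and 7.62 in KO, with full overlap (-0.083, adjusted p = 0.912, limma). The sign turned without WT2 (0.055) and without KO2 (0.11), while the difference was -0.16 without KO1, -0.22 with the mean of probe sets and -0.29 over bright ones. Of its 5 probe sets 4 were lower in KO. With either of these summaries all 4 folate enzymes had a lower KO mean. All 12 DNA replication genes set beside it had a lower KO mean (median -0.39, against 59.7% of all genes lower). In limma 0 of the 12 passed and 6 had an unadjusted p under 0.05, against 7.67% of all genes at that p and lower, among them Cdk1 (-0.88, adjusted p = 0.077), Top2a (-0.94, 0.183) and Mcm6 (-0.90, 0.209). Their median deviation from each gene's mean was 0.12, 0.26 and 0.41 in WT1 to WT3 and -0.51, -0.026 and -0.16 across KO1 to KO3, and its part in the one-carbon values was not tested.

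No amino acid transporter passed. The values of Slc3a2, Slc38a2 and Shmt2 were the highest of the 40, though array values of different probes do not rank genes by abundance. Slc3a2 is the heavy chain (CD98) that brings Slc7a5 and its relatives to the membrane. It was at 11.02, 11.02 and 11.08 in WT and at 10.90, 10.95 and 10.86 in KO. The groups did not overlap, with SDs of 0.035 in WT and 0.044 in KO (n = 3 each). The difference was small (-0.14, SE 0.13, adjusted p = 0.725, limma). An unmoderated test, which uses only the gene's own spread, gave an adjusted p of 0.414 for it. The difference was -0.063 with the mean of probe sets and -0.051 over bright ones.

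Its partner Slc7a5 (LAT1), which carries leucine and other large neutral amino acids, varied widely within both groups. It was at 8.93, 9.39 and 9.67 in WT and at 9.58, 8.83 and 9.18 in KO (-0.13, adjusted p = 0.872, limma). The difference was 0.037 without WT3, 0.051 without KO2 and -0.32 without KO1. Slc7a6, the light chain for basic and neutral amino acids, was at 9.76, 9.76 and 9.96 in WT and at 9.51, 9.75 and 9.57 in KO. It showed no overlap, by a margin of about the second decimal (-0.22, adjusted p = 0.622), and 11 of its 12 probe sets were lower in KO.

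The remaining transporters overlapped. Slc38a2 (SNAT2), a glutamine and alanine carrier induced by amino acid shortage, was at 10.61, 10.74 and 10.73 in WT and at 10.22, 10.71 and 10.84 in KO. KO1 alone lay below WT, and the difference of -0.11 (adjusted p = 0.864, limma) became 0.081 without it. Slc7a1, the arginine and lysine carrier, likewise differed by -0.13 (adjusted p = 0.874) and by 0.15 without KO1. Slc38a1 differed by 0.0042 (adjusted p = 0.993), and by -0.019 with the mean of probe sets, -0.030 without KO1 and 0.070 without KO2.

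The 13 cytosolic aminoacyl-tRNA synthetases, which charge tRNAs with amino acids, all had a lower KO mean, with a median difference of -0.15, and 0 of 13 passed in limma (0 at an unadjusted p under 0.05). Over all genes 59.7% had a lower KO mean, with a median of -0.052. Without KO1 8 of the 13 were lower (median -0.028, against 51.8% of all genes and -0.0087), and without WT3 8 (-0.064, against 57.0% and -0.041). With quantile normalization 8 were lower (-0.090, against 52.0% and -0.0097), and with median centring 9 (-0.11, against 53.4% and -0.017). The median deviation of the 13 was -0.068, 0.077 and 0.22 in WT1 to WT3 and -0.24, 0.054 and -0.052 in KO1 to KO3. KO1 was the lowest array and WT3 the highest, and the other four overlapped.

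**Figure D3:**
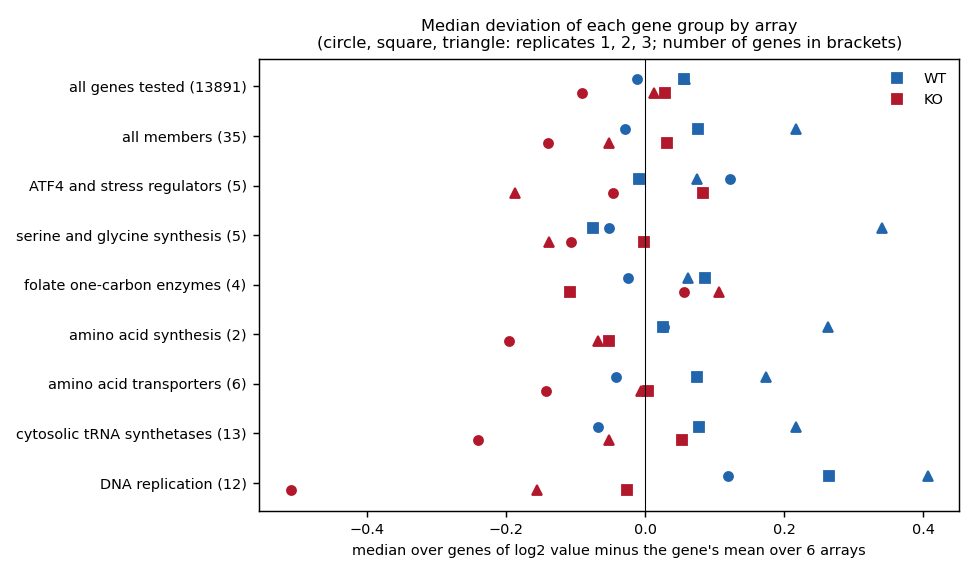
Median over the genes of each group of the log2 value minus that gene's mean over the 6 arrays (horizontal axis), for each WT and KO array; symbols mark the replicate. KO1 is lowest for the synthetases and the replication genes, and WT3 is highest for most groups.

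Aars, the alanyl-tRNA synthetase, had the smallest p of them. It was at 8.14, 8.19 and 8.59 in WT and at 8.11, 7.63 and 8.03 in KO. The groups were separate by about the second decimal, and KO2 was lowest. The difference was -0.38 (SE 0.18, adjusted p = 0.509, limma), -0.24 when WT3 was left out, -0.23 when KO2 was, and -0.25 with the mean of probe sets, and 15 of 19 probe sets were lower. Eprs, which charges both glutamate and proline tRNAs, was at 8.83, 9.08 and 9.16 in WT and at 8.31, 8.90 and 8.79 in KO. It overlapped (-0.36, adjusted p = 0.546), and the difference was -0.18 without KO1 and -0.20 with the mean of probe sets.

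Lars, the leucyl enzyme and a leucine sensor for mTORC1, was at 7.83, 8.25 and 8.25 in WT and at 7.65, 7.97 and 7.84 in KO (-0.29, adjusted p = 0.580, limma; -0.16 with the mean of probe sets). WT1 lay among the KO values. Mars, the methionyl enzyme, differed by -0.26 (adjusted p = 0.584), by -0.15 without WT3 and by -0.066 with the mean of probe sets. For Nars, Tars and Gars the difference was near 0 without KO1: Nars, the asparaginyl enzyme, differed by -0.27 and by -0.028 without that array, Tars, the threonyl enzyme, by -0.22 and by -7.3e-06, and Gars, the glycyl enzyme, by -0.15 and by 0.0091 (adjusted p with all arrays 0.676, 0.731 and 0.806).

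The other six lay within 0.1 of 0. Wars, the tryptophanyl enzyme that interferon induces, differed by -0.062, Sars (seryl) by -0.035, Yars (tyrosyl) by -0.021, Cars (cysteinyl) by -0.016 and Iars (isoleucyl) by -0.0035, with limma adjusted p-values from 0.904 to 0.994. Under quantile normalization Sars, Yars, Cars and Iars were higher in KO (0.0041, 0.035, 0.033 and 0.040), as they were without KO1 (0.085, 0.090, 0.049 and 0.067). With the mean of probe sets Cars was at 0.15, whereas Sars was at -0.16, with 10 of its 14 probe sets lower in KO and 3 wholly below WT.

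Vars, the valyl enzyme, was a case where the gene value and its probe sets differed. Its gene value was at 9.86, 10.06 and 10.11 in WT and at 10.14, 9.99 and 9.80 in KO, with full overlap (-0.031, adjusted p = 0.956, limma; 0.0044 with quantile normalization, -0.11 without KO1). Of its 30 probe sets, however, 26 were lower in KO and 8 of these lay wholly below WT, against 53.7% and 7.95% of all probe sets. The mean of probe sets gave -0.21, which did not pass (adjusted p = 0.530). Cars showed the opposite, with 7 of 21 probe sets lower in KO and 3 wholly above WT, where 6.03% of all probe sets lay above. Over the 622 probe sets of the 40 genes 64.6% were lower in KO, 50 lay wholly below WT (8.04%) and 17 wholly above (2.73%). Probe sets of a gene share its transcripts and are not replicates.

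**Figure D4:**
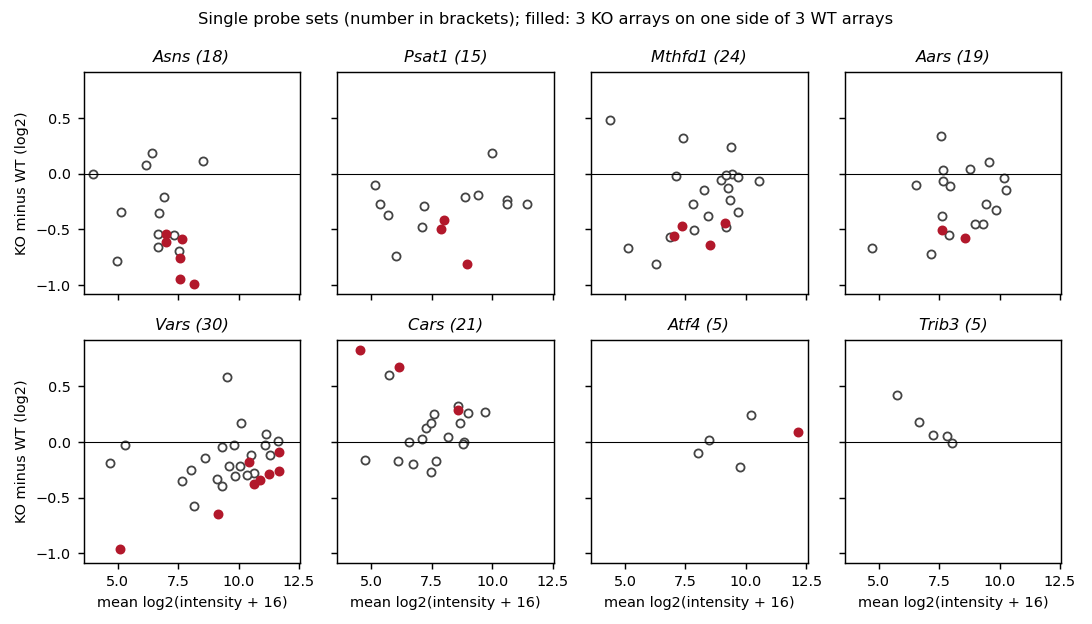
Difference of single probe sets (KO minus WT, log2(intensity + 16), vertical axis) against their mean value over 6 arrays (horizontal axis) for 8 genes; filled points have all 3 KO arrays on one side of all 3 WT arrays. Asns has 6 filled points and Vars 8, all below 0, and Cars has 3 and Atf4 1, all above 0.

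Further genes of the pathway, which are not among the 40, gave the setting for these values, and none of them passed in limma. For the counts that follow, 59.7% of all genes had a lower KO mean, and 7.67% were lower and 2.99% higher at an unadjusted p under 0.05. In the integrated stress response list 0 of 15 tested genes passed, 2 at an unadjusted p under 0.05. Those were Eif2ak2 (PKR, the eIF2α kinase activated by double-stranded RNA; -0.63, adjusted p = 0.301) and Ddit4 (REDD1, an mTORC1 inhibitor; 0.46, 0.398), followed by Eif2s1, eIF2α itself (-0.20, 0.625). The kinases that sense amino acid shortage and unfolded protein, Eif2ak4 and Eif2ak3, differed by -0.20 (0.652) and 0.050 (0.926); Eif2ak4 and Eif2ak3 were named after their values were seen.

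In the folate and methionine list 0 of 17 passed, with 15 lower in KO and a median of -0.10. The median deviation of the 17 was -0.064, 0.030 and 0.21 in WT1 to WT3 and -0.15, -0.0068 and 0.0012 in KO1 to KO3. WT1 thus lay below KO2 and KO3. Ggh, which trims the glutamate tail of folates, differed by -0.54 (limma adjusted p = 0.296), Gcsh of the glycine cleavage system by -0.52 (0.558) and Mat2b, a subunit of methionine adenosyltransferase, by -0.30 (0.580). For each of these KO1 was the lowest array, and for Gcsh it read 6.07, against 6.94 to 7.45 in the others. Of 9 further cytosolic synthetase and scaffold genes 8 were lower and 0 passed (median -0.29), led by Hars (-0.44, 0.444), Farsa (-0.29, 0.532) and Kars (-0.31, 0.547). The median deviation of the 9 was 0.0016, 0.20 and 0.18 in WT1 to WT3 and -0.22, 0.037 and 0.0074 in KO1 to KO3. KO1 was thus the lowest array here too, and KO2 and KO3 lay above WT1. The 16 mitochondrial synthetases had 8 lower and 8 higher (median 0.030), and 0 passed. Yars2 differed by -0.62 (adjusted p = 0.117), Fars2 by 0.49 (0.345) and Vars2 by 0.32 (0.500), each with no overlap of the groups. Of the 16, 1 lay wholly below WT (6.25%, against 11.3% of all genes). Wholly above WT lay 3 of the 16, against 6.1% of all genes.

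Of 11 further transporters 9 were lower in KO, 4 of them with no overlap (36.4%, against 11.3% of all genes), and 0 passed (median -0.087, against -0.052 over all genes). By p the first 3 were Slc43a1 (LAT3), a carrier of branched-chain amino acids (-0.48, limma adjusted p = 0.215), Slc36a4 (-0.47, 0.278) and the lysosomal glutamine carrier Slc38a7 (-0.52, 0.391). Of 14 further amino acid enzymes 7 were lower and 0 passed (0 at an unadjusted p under 0.05). They were led by the polyamine enzyme Odc1 (-0.61, 0.528), Bcat1 (0.28, 0.561) and Got2 (-0.24, 0.565). KO1 was the lowest array for Odc1 (8.34, against 8.77 to 9.81 in the others).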

How the data were processed

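Each array carried RNA of its own mouse, per the labels. The deposited values are linear intensities that the authors summarised by PLIER (Expression Console 1.4, exon-level analysis), per the labels and the submitters' processing notes; no background correction, normalization or genome build is given in the sources used here. Values were taken as log2(intensity + 16), which understates differences of dim genes, with no further normalization. Probe sets with 1 symbol were reduced to their median per gene (5106 probe sets had several and 30892 none). Genes under the 40th percentile of mean value (5.90) were left out, which kept 13891 of 23152. The KO effect was fitted in R 4.3.3 by limma 3.58.1 with moderated variances, two-sided, and p-values were adjusted by Benjamini-Hochberg over all genes tested. The test was checked on simulated arrays. Current and older symbols came from a RefSeq table of GRCm38.p6. The members, lists and tests were chosen with earlier results of these data known. All listed genes are named; of further lists, the 3 with the smallest p. Values per array are given for the 6 genes with the smallest p, 3 regulators, the 3 with the highest values and, chosen after their values were seen, some others. Alternatives were other pseudocounts, filters, gene summaries, normalizations and variance models, the replicate number as a block and each array left out.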

Additional observations from a re-analysis of the deposited data

How the results depend on the processing

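None of the tested genes of the list passed under any of the 11 alternatives or without any array, with a lowest adjusted p of 0.151 (Asns, mean of probe sets). Psat1 had an unadjusted p under 0.05 in all 18 fits and Asns in each of the 17 where it was tested. Mthfd1 had it in 11 of 18 fits, and without KO1 its unadjusted limma p was 0.103. The count over all genes, 38, was 60 with the mean of probe sets, 0 in an unmoderated test (1335 at an unadjusted p under 0.05) and 67 with the replicate block, and 4 to 37 when an array was left out (4 for WT1 or WT2, 7 for WT3 and 11 for KO3). Of the calls 97.4% were lower in KO, against 87.3% with quantile normalization, 88.5% with median centring, 83.3% with the mean of probe sets and 84.4% with bright ones. Park7 kept its difference of -3.57 in the unmoderated test, where it no longer passed (adjusted p = 0.0905), and lay between -3.68 and -3.47 without an array. Deviations from the group mean had correlations of 0.15, 0.17 and 0.010 between same-numbered arrays, against -0.19 to 0.092 for arrays of different number. With 3 arrays in a group these deviations sum to 0, so the correlations depend on one another. Whether the numbers pair mice is not known from these values, and the main fit took the arrays as unpaired. With the block 5 genes of the list had an unadjusted p under 0.05 in place of 3, and no call of the list changed.

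The sign turned for some small differences. With the mean of probe sets these were Atf4 (0.0049), Trib3 (0.14), Sesn2 (-0.092), Mthfd1l (-0.083), Mthfd2 (-0.0092), Slc38a1 (-0.019) and Cars (0.15), and with bright probe sets Mthfd1l (-0.080), Mthfd2 (-0.030) and Cars (0.072). With quantile normalization they were Sars (0.0041), Iars (0.040), Yars (0.035), Cars (0.033) and Vars (0.0044), and with median centring Iars (0.031), Yars (0.014), Cars (0.019) and Vars (0.0043). Leaving out an array gave ranges that crossed 0 for Mthfd1l (-0.041 to 0.31), Slc38a1 (-0.030 to 0.070), Cars (-0.16 to 0.088), Sars (-0.17 to 0.085), Iars (-0.051 to 0.067), Yars (-0.13 to 0.090), Vars (-0.11 to 0.059), Phgdh (-0.15 to 0.24), Shmt2 (-0.083 to 0.19), Tyms (-0.21 to 0.11), Slc7a5 (-0.33 to 0.051), Slc7a1 (-0.35 to 0.15), Slc38a2 (-0.23 to 0.081) and Gars (-0.28 to 0.0091). The cause was not tested. Asns and Sesn2 were not among the genes tested with bright probe sets, nor Atf5, Psph and Sesn2 with the stricter filter, so they have no value there. Without the filter all 40 genes were tested, and 0 passed.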
